A study of Mus musculus with 8 samples.

Results

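The 9 genes of the acidic secretory phosphoproteins of dentin and bone, with their relatives, were followed in the lower molars of mouse embryos: Dspp, Dmp1, Ibsp, Mepe, Spp1, Odam, Amtn, Sparc and Sparcl1. They were taken by symbol, and all 9 were found among the 43629 Ensembl genes of the count tables. The mutant group held 4 K14Cre;Jagged1 fl/fl embryos and the control group 4 Jagged1 fl/fl embryos, all at E18.5, shortly before birth. By these labels the floxed Jagged1 alleles were shared by both groups and only the mutants carried the Cre transgene, which the keratin 14 promoter drives in epithelium. According to the study's methods, the first lower molars of the left and right side of each embryo were pooled and the controls were wild-type littermates, a term that differs from the floxed genotype on their labels, and which embryos shared a litter or a sex was not given in the labels. The comparison asks how these matrix genes stand in the molar when the Notch ligand Jagged1 is removed from its epithelium.

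Most of these genes belong to the secretory calcium-binding phosphoprotein family, which arose by tandem duplication from an ancestor related to Sparc and Sparcl1. Their products are acidic, are phosphorylated by the Golgi kinase Fam20c, are cut by extracellular proteases, and bind calcium and collagen in dentin, bone and enamel. In the tooth, odontoblasts of the dental mesenchyme lay down dentin on a collagen I scaffold, while ameloblasts of the epithelium lay down enamel against it, and each cell type signals to the other as it matures. Odontoblasts are the main source of Dspp, bone cells share Dmp1, Ibsp, Spp1 and Mepe, and Odam and Amtn are known from late ameloblasts and the epithelium that joins the gum to the tooth.

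Jag1, the targeted gene, was measured at 95.2, 103, 104 and 99.8 CPM in the controls J3, J5, J6 and J7 and at 34.0, 38.9, 45.9 and 57.1 CPM in K14J26, K14J28, K14J29 and K14J30, the mutants. CPM are counts scaled to the size of the library, corrected by the trimmed mean of M values (TMM), and values are given in this order of embryos throughout. Jag1 fell by 1.19 ± 0.14 (SE) on the log2 scale without overlap of the groups (adjusted p = 0.00517, edgeR quasi-likelihood test, Benjamini-Hochberg). Libraries held 17327224 to 28613574 counts in the controls and 24692128 to 29792467 in the mutants, so that 3 counts, taken as the limit of detection, correspond to 0.0998 to 0.166 CPM. No pair of libraries of 1 group agreed within sampling noise. The markers of dental epithelium, odontoblasts and ameloblasts were detected in the tissue, while those of cartilage summed to 10.2 to 18.8 CPM. Skeletal muscle markers summed to 372 CPM in control J6 and 182 CPM in control J7 and to 4.65 to 17.4 CPM in the other 6 embryos, and osteoclast markers to 1899 CPM in mutant K14J28 against 318 to 717 CPM elsewhere.

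Of the 9 genes, 3 were expressed at a higher level in the mutants: Dspp, which encodes the major dentin phosphoprotein, Odam and Sparc. None was lower by the test. Of the 9 genes, 8 had at least 10 counts in at least 2 embryos of a group and were tested, and Amtn was not. At an adjusted p under 0.05, 3 of the 8 tested genes were higher and 0 lower, where 9.52% of all 17129 genes tested were called higher and 6.61% lower. An unadjusted p under 0.05 added Sparcl1 to the higher genes and again left 0 lower, and DESeq2 called the same 3 higher and 0 lower. Over all genes, 19.1% were higher and 15.7% lower at the unadjusted p and 13.1% and 10% by DESeq2. The study's criteria join an unadjusted p of 0.05 with a fold change of 0.5. The fold change was read here as a log2 change of 0.5 or more in size, a scale that the paper does not name. These criteria also gave the same 3 genes as higher and 0 as lower, against 8.33% and 5.85% of all genes. By DESeq2 these criteria added Dmp1 as higher and Mepe as lower, with 8.1% of all genes higher and 5.71% lower. Groups without overlap, with all mutants higher, were found for 2 of the 8 genes, Dspp and Odam, and for 12.6% of all genes. The median log2 fold change was 0.47 over the 8 genes and 0.01 over all genes. The 0.47 lies between Ibsp (0.34) and Dmp1 (0.59), which were not called, and Ibsp turned to -0.24 without K14J28. In bulk tissue, a change in the number of cells of a type and a change in RNA per cell cannot be told apart.

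**Figure D1:**
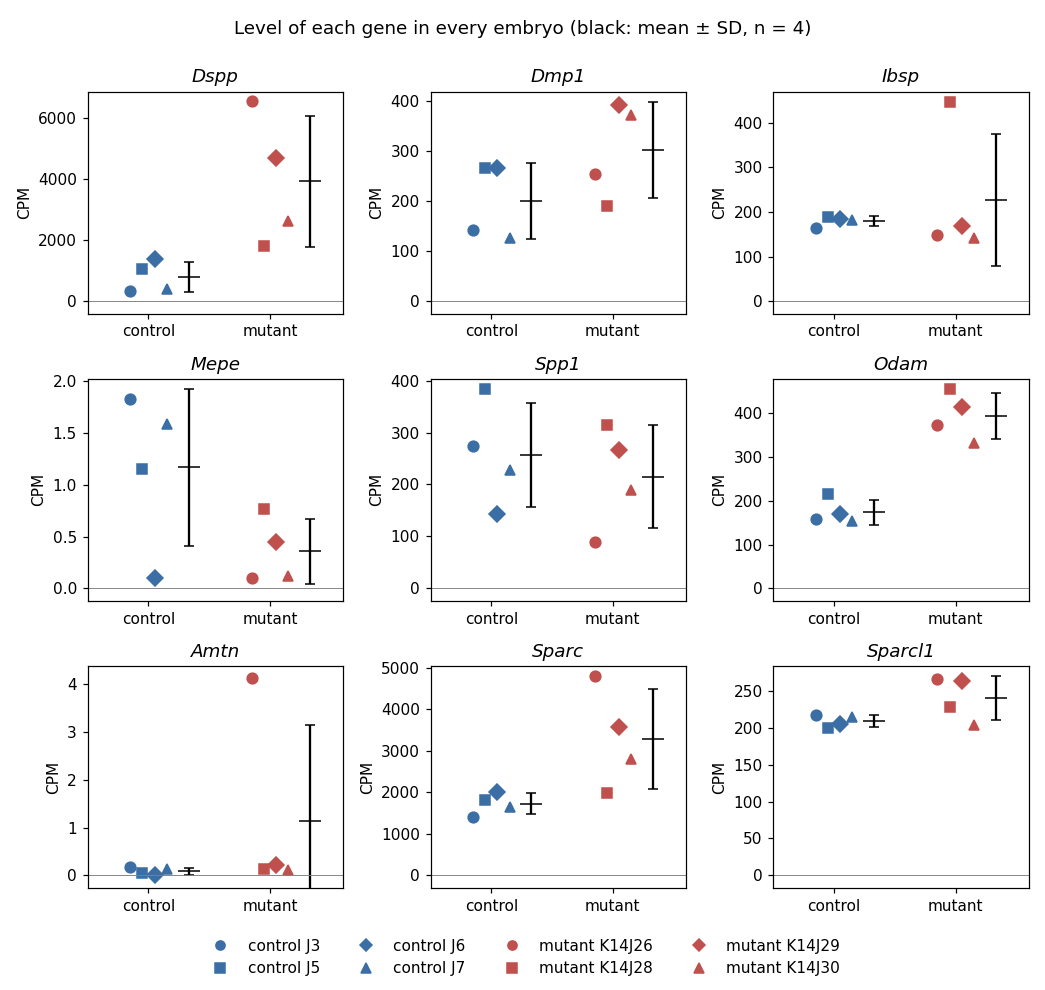
Level of each of the 9 genes in CPM (vertical axis, from 0, with its own scale for each gene) in the 4 control (blue) and 4 mutant (red) embryos, with the mean and SD of each group in black. The mutants lie above all controls for Dspp and Odam, single mutants stand apart for Ibsp (K14J28, 447 CPM) and Amtn (K14J26, 4.13 CPM), and the groups overlap for the remaining genes.

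Most of these genes share a small part of the genome. On GRCm38, Sparcl1 (chr5:104079111-104113733, minus strand), Dspp (chr5:104170712-104180127), Dmp1 (chr5:104202613-104214102), Ibsp (chr5:104299171-104311469), Mepe (chr5:104325329-104338611) and Spp1 (chr5:104435118-104441050) lie next to each other on chromosome 5, the last 5 on the plus strand. Odam (chr5:87885029-87894174) and Amtn (chr5:88376108-88385916), both on the plus strand, lie elsewhere on chromosome 5 in the enamel part of the family, and Sparc (chr11:55394500-55423183, minus strand) lies on chromosome 11. Of the 9 genes, only Spp1 overlapped the exons of another annotated gene on its own strand, over 309 bases of Gm42793, which had no row in the count tables. The gene Gm26703 lies in an intron of Sparcl1 on the opposite strand and had at most 32 counts.

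The sequences before the starts of 4 of the genes are shown, Odam and Sparc because they rose and Dmp1 and Ibsp because they lie beside Dspp and did not pass the test. Each runs over the 250 bases before the RefSeq start on GRCm38.p6, 5′ to 3′ on the strand of the gene, from chr5:87884760-87885009 for Odam, chr11:55420081-55420330 for Sparc, chr5:104202367-104202616 for Dmp1 and chr5:104299037-104299286 for Ibsp. RefSeq promoters were found for 7 of the 9 genes, and for Dspp and Sparcl1 none was matched.
Odam: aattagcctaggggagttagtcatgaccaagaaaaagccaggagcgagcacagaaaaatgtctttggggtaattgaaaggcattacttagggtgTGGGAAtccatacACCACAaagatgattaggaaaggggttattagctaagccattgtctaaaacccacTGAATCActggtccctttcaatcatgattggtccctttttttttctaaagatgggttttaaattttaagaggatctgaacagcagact
Sparc: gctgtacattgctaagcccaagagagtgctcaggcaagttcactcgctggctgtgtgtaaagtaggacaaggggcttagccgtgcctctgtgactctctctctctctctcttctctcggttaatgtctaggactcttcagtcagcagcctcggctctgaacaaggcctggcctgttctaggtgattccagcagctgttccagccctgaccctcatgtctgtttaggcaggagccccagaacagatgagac
Dmp1: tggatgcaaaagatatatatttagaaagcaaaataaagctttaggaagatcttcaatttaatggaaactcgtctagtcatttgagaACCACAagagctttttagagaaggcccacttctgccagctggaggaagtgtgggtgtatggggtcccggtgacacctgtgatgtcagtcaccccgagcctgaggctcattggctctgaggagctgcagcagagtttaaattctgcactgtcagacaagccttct
Ibsp: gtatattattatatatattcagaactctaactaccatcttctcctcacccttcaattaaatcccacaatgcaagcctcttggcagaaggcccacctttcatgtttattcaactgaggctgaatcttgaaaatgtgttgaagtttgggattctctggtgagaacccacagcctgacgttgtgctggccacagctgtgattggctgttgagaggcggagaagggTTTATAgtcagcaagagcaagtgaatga
Capitals mark matches, on either strand, to 5 motifs: TGGGAA of RBPJ, the DNA-binding partner of Notch, TGTGGT of the Runx factors, TAATTA of homeodomain factors, TGANTCA of AP-1 and the TATA box TATAAA. Odam held an RBPJ match at -156, a Runx match at -143 and an AP-1 match at -88 from its start, Dmp1 a Runx match at -164, Ibsp a TATA match at -28, and Sparc no match in these bases. Of the genes not shown, Amtn held an RBPJ match at -108, Spp1 a Runx match at -128 and a TATA match at -211, and Mepe Runx matches at -118 and -80, a homeodomain match at -208 and a TATA match at -173. Among 32851 RefSeq promoters of the mouse, the same 250 bases held RBPJ in 21.6%, Runx in 14.05%, the homeodomain motif in 4.84%, AP-1 in 6.75% and TATA in 12.4%. These are letter matches and describe the sequence only.

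Dspp, cleaved after synthesis into dentin sialoprotein and dentin phosphoprotein, changed the most of the 8 genes tested. Its level was 350, 1047, 1376 and 398 CPM in the controls, and 6549, 1800, 4694 and 2640 CPM in the mutants. Every mutant lay above every control, and both groups spread widely, the highest embryo being 3.93 times the lowest among controls and 3.64 times among mutants. The means were 793 ± 502 CPM and 3921 ± 2133 CPM (SD, n = 4 each), and the log2 fold change was 2.31 ± 0.54 (SE, adjusted p = 0.0247, edgeR quasi-likelihood test, Benjamini-Hochberg). In fits without 1 embryo, the change ran from 1.94 to 2.71, and the adjusted p was 0.0657 without J3, 0.0583 without J5, 0.0748 without J7 and 0.0714 without K14J29. The unadjusted p stayed under 0.05 in all 8 of these fits.

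Dmp1, a phosphoprotein of odontoblasts and osteocytes that nucleates mineral on collagen, lies directly downstream of Dspp and did not pass the test. It was measured at 143, 265, 265 and 126 CPM in the controls and at 254, 190, 392 and 372 CPM in the mutants. The controls J5 and J6 lay above the mutants K14J26 and K14J28, so the groups overlapped. The log2 fold change was 0.59 ± 0.30 (SE, adjusted p = 0.193, edgeR quasi-likelihood test, Benjamini-Hochberg).

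The balance of these neighbouring dentin genes was compared within each library, where scaling plays no part. The ratio of Dspp to Dmp1 counts was 2.45, 3.94, 5.19 and 3.15 in the controls and 25.8, 9.49, 12.0 and 7.10 in the mutants. The lowest mutant ratio, in K14J30, lay above the highest control ratio, in J6. The mean log2 ratio was higher by 1.76 in the mutants (exact permutation test over 70 arrangements, two-sided p = 0.0286, the smallest that 4 against 4 embryos allow, and 0.172 after adjustment over 6 ratios). The difference lay between 1.39 and 2.01 when any 1 embryo was left out.

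Ibsp, the integrin-binding sialoprotein of early bone and cementum, was even among controls and uneven among mutants. It was measured at 164, 189, 184 and 181 CPM in the controls and at 149, 447, 169 and 141 CPM in the mutants. Mutant K14J28 stood above all other embryos, and the remaining 3 mutants lay within or below the control range. The log2 fold change was 0.34 ± 0.34 (SE, adjusted p = 0.511, edgeR quasi-likelihood test, Benjamini-Hochberg). Without K14J28 its sign turned, to -0.24 ± 0.08 (SE, adjusted p = 0.0599 by the same test). K14J28 was also the embryo in which the 9 osteoclast markers summed to 1899 CPM. In it Ctsk reached 806 CPM, against 105 to 252 CPM in the other embryos, and Acp5 reached 454 CPM, against 65.2 to 158 CPM. The list's groups overlapped, with sums of 318 to 717 CPM in the controls and 318 to 1899 CPM in the mutants, and 0 of 9 markers were called by edgeR or DESeq2, with 1 at an unadjusted p under 0.05. Their part in the Ibsp values was not tested.

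Spp1 encodes osteopontin, a phosphoprotein of bone surfaces that osteoclasts, macrophages and osteoblasts all secrete. It was measured at 273, 384, 144 and 229 CPM in the controls and at 88.5, 314, 267 and 190 CPM in the mutants. The groups overlapped over most of their range, with control J5 highest and mutant K14J26 lowest. The log2 fold change was -0.26 ± 0.38 (SE, adjusted p = 0.660, edgeR quasi-likelihood test, Benjamini-Hochberg). It was -0.01 without J5, -0.0018 without K14J26 and -0.50 without K14J28, again without a call. In each group the embryo with the most osteoclast marker counts, J5 with 717 CPM and K14J28 with 1899 CPM, was also the highest for Spp1, and the embryo with the fewest, J6 and K14J26 with 318 CPM each, was the lowest. The part of the osteoclast markers in the Spp1 values was not tested. The ratio of Spp1 to Ibsp was 1.67, 2.03, 0.780 and 1.26 in the controls and 0.594, 0.703, 1.58 and 1.35 in the mutants, and its groups overlapped (log2 difference -0.48, exact permutation p = 0.286, adjusted 0.429).

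Mepe, an osteocyte phosphoprotein that restrains mineralization, was low in all embryos. It had 33, 28, 2 and 47 counts in the controls and 2, 23, 13 and 3 counts in the mutants. Control J6 was as low as the lowest mutant, and the other 3 controls lay above all mutants. This corresponded to 1.17 ± 0.762 CPM and 0.357 ± 0.317 CPM (SD, n = 4 each), with a log2 fold change of -1.64 ± 0.75 (SE, adjusted p = 0.151, edgeR quasi-likelihood test, Benjamini-Hochberg). In the fits without 1 embryo it ran from -2.32 (without K14J28) to -1.36, with an adjusted p of 0.0630 to 0.300. Skeletal muscle markers summed to 372 CPM in J6, with 2 Mepe counts, to 182 CPM in J7, with 47, and to 4.71 CPM in K14J26, with 2, and their part in the Mepe values was not tested.

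Odam, the odontogenic ameloblast-associated protein of the enamel surface, rose the most evenly. It was measured at 158, 215, 169 and 154 CPM in the controls and at 373, 456, 414 and 333 CPM in the mutants. The groups were well apart, and within each the highest embryo was at most 1.40 times the lowest. The means were 174 ± 28.3 CPM and 394 ± 53.0 CPM (SD, n = 4 each), and the log2 fold change was 1.18 ± 0.13 (SE, adjusted p = 0.00485, edgeR quasi-likelihood test, Benjamini-Hochberg). By p-value Odam stood at place 20 among the 17129 genes tested. It remained called in all 8 fits without 1 embryo, with a change of 1.10 to 1.29. Without J6 and J7 together it lost its call, at a change of 1.07 (adjusted p = 0.114 by the same test).

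Amtn, which encodes amelotin of the ameloblast basal lamina, was seen in number in 1 embryo only. It had 3, 1, 0 and 4 counts in the controls and 86, 4, 6 and 3 counts in the mutants. The 86 counts, 4.13 CPM, belonged to K14J26, and the other mutants were at 0.116 to 0.208 CPM, near the level of 3 counts. K14J26 was also the embryo with the most Amelx, Ambn and Enam. Amtn did not pass the count filter, and no fold change is given. The ratio of Odam to Amtn differed between the groups by -0.98 on the log2 scale (exact permutation p = 0.6, adjusted 0.6), and its sign turned without K14J26, to 0.20. With so few Amtn counts the ratio rests on the 0.5 counts added to each gene, and with 2 counts added the difference was -0.31 (exact permutation p = 0.886).

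Sparc, or osteonectin, binds collagen and calcium and is secreted by odontoblasts, osteoblasts and many connective tissue cells. It was measured at 1415, 1804, 2014 and 1651 CPM in the controls and at 4800, 1980, 3570 and 2803 CPM in the mutants. Mutant K14J28 lay just below control J6, and the other 3 mutants lay above all controls. The means were 1721 ± 253 CPM and 3288 ± 1199 CPM (SD, n = 4 each), and the log2 fold change was 0.93 ± 0.24 (SE, adjusted p = 0.0323, edgeR quasi-likelihood test, Benjamini-Hochberg). The change was between 0.69 and 1.11 in the fits without 1 embryo, with an adjusted p of 0.0531 to 0.0916 without J3, J5, J6, J7 or K14J29 and under 0.05 without any of the other 3.

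Sparcl1, or hevin, the closest relative of Sparc, was the most even of the 9 genes among controls. It was measured at 217, 199, 205 and 214 CPM in the controls and at 266, 227, 263 and 204 CPM in the mutants. Mutant K14J30 lay within the control range, and the other 3 mutants exceeded all controls. The log2 fold change was 0.20 ± 0.09 (SE, unadjusted p = 0.0491, adjusted p = 0.142, edgeR quasi-likelihood test, Benjamini-Hochberg), and without K14J30 it was 0.27 (adjusted p = 0.0486). The ratio of Sparcl1 to Sparc was 0.153, 0.110, 0.102 and 0.130 in the controls and 0.0555, 0.115, 0.0737 and 0.0728 in the mutants (log2 difference -0.68, exact permutation p = 0.0857, adjusted 0.228).

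**Figure D2:**
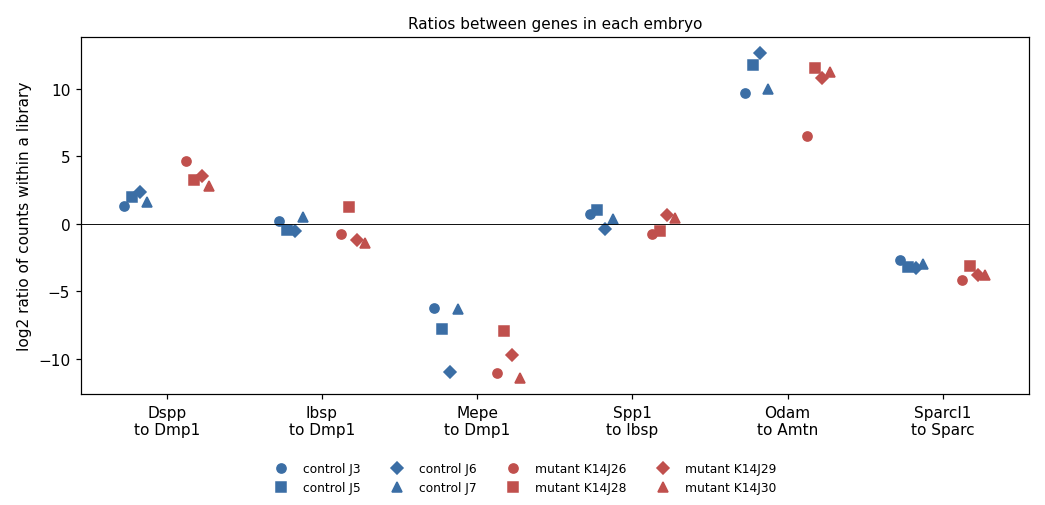
Log2 ratio of the counts of 2 genes within each library (vertical axis) for 6 pairs of genes (horizontal axis), with the 4 controls in blue and the 4 mutants in red. The groups are apart for Dspp to Dmp1, higher in the mutants by 1.76, and overlap for the other 5 ratios.

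**Figure D3:**
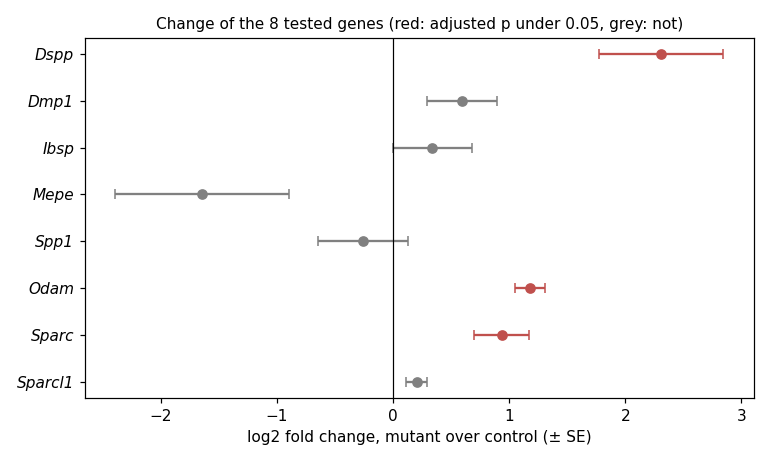
Log2 fold change of mutant over control (horizontal axis) with its standard error for the 8 genes tested, with an adjusted p under 0.05 in red. Dspp, Odam and Sparc are in red at 2.31, 1.18 and 0.93, and Mepe has the widest error (0.75).

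The levels were also set side by side per kilobase of exon. In the controls, Sparc led with a mean of 454 CPM per kb (373 to 532), above the range of every other gene. It was followed by Dspp at 179 (79.0 to 311), Spp1 at 156 (87.2 to 233) and Odam at 127 (112 to 157), whose ranges overlapped. Ibsp at 86.8, Dmp1 at 72.3 and Sparcl1 at 71.1 CPM per kb came next, neighbours whose ranges also overlapped, and Mepe at 0.694 and Amtn at 0.0837 came last. In the mutants, Dspp at 885 CPM per kb (406 to 1478) and Sparc at 868 (523 to 1267) overlapped at the top, and Odam at 286 (242 to 332) lay above the ranges of Spp1 at 130, Ibsp at 110, Dmp1 at 109 and Sparcl1 at 81.8. Mepe at 0.212 and Amtn at 1.12 CPM per kb were again the lowest. Together the 9 genes took 0.284, 0.425, 0.450 and 0.306% of all counts in the controls and 1.05, 0.564, 0.947 and 0.680% in the mutants, without overlap. Dspp and Sparc held most of these counts in every embryo. They had 6325 and 25560 of 49170 counts in J3, and 136319 and 99920 of 259870 in K14J26. Taken singly, only Dspp and Odam had groups without overlap, so the sum does not describe the other genes.

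The genes around them were counted in the same way. Of 35 other protein-coding genes within 250 kb of a member, 17 were tested, 4 were called higher and 0 lower, with 7 higher and 0 lower at an unadjusted p under 0.05 and 5 and 0 by DESeq2. Over all genes tested, 9.52% were called higher and 6.61% lower, with 19.1% and 15.7% at the unadjusted p and 13.1% and 10% by DESeq2. Whether the neighbours differ from all genes was not tested. Those called were Ambn and Enam, the enamel matrix genes beside Amtn, Slc36a2 at 209423 bases from Sparc (log2 fold change 1.17 ± 0.33, adjusted p = 0.0439) and Klhl8 beyond Sparcl1 (0.40 ± 0.07, adjusted p = 0.0104, all by the edgeR quasi-likelihood test, Benjamini-Hochberg). Nearer to Sparc, Atox1 had a log2 fold change of -0.05, G3bp1 of -0.23, Fat2 of -0.01 and Slc36a1 of 0.13, and none passed the test. Between Klhl8 and Dspp, Hsd17b11 had a log2 fold change of -0.09, Nudt9 of 0.41 and Gm17660 of 1.21, and beyond Spp1 Pkd2 had 0.10, none of which passed the test.

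**Figure D4:**
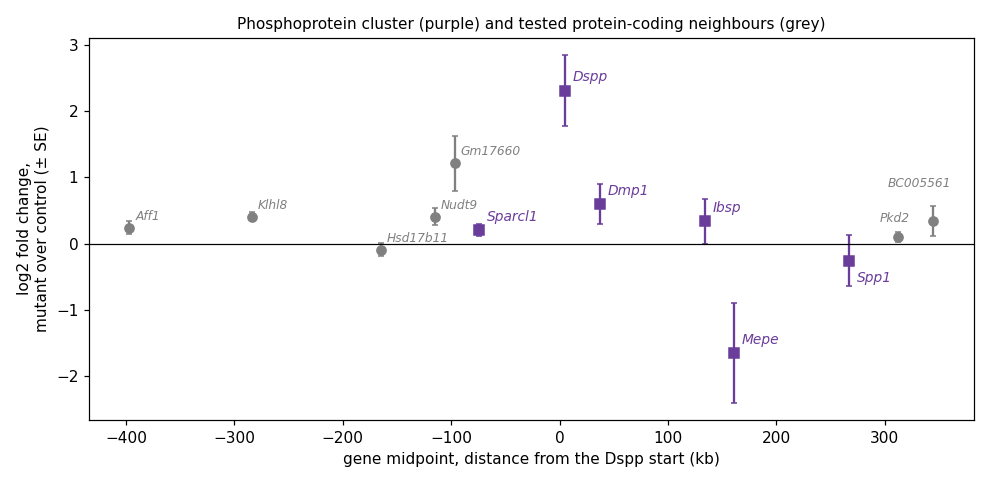
Log2 fold change of mutant over control with its standard error (vertical axis) against the distance of the gene's midpoint from the Dspp start in kb (horizontal axis), for the 6 clustered genes (purple) and the tested protein-coding neighbours (grey). Dspp at 2.31 stands above its neighbours, while Mepe at -1.64 and Spp1 at -0.26 lie below 0 and did not pass the test.

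The scaffold and the other matrix proteins were counted beside the 9 genes. For these and the lists that follow, the shares over all genes tested were 9.52% higher and 6.61% lower. At an unadjusted p under 0.05 they were 19.1% and 15.7%, and by DESeq2 13.1% and 10%. Whether any list differs from all genes was not tested. Both collagen I chains were higher, Col1a1 with a log2 fold change of 1.10 ± 0.31 (SE, adjusted p = 0.0406, edgeR quasi-likelihood test, Benjamini-Hochberg) and Col1a2 with 1.43 ± 0.33 (adjusted p = 0.0237). Of 9 other non-collagenous matrix genes, 8 were tested, 3 were higher and 0 lower (4 and 0 by DESeq2, and 4 and 0 at an unadjusted p under 0.05), with a median of 0.55. These were the osteocalcin genes Bglap (2.56) and Bglap2 (1.91), which are near-identical copies whose reads could be split by the counting, and the collagen-binding proteoglycan Dcn (0.72). Fn1 had a value of -0.18, Omd of 0.06 and Mgp of 1.39, and they did not pass the test.

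Of the 12 genes for the kinase and the proteases that process these proteins, 11 were tested, 4 were higher and 0 lower (6 and 0 by DESeq2, and 6 and 0 at an unadjusted p under 0.05), with a median of 0.58. Among all genes tested, 9.52% were higher and 6.61% lower (13.1% and 10% by DESeq2, and 19.1% and 15.7% at the unadjusted p). The Golgi kinase Fam20c rose by 1.35 ± 0.36 and its partner Fam20a by 1.53 ± 0.43 on the log2 scale (SE, adjusted p = 0.0357 and 0.0410, edgeR quasi-likelihood test, Benjamini-Hochberg). Phex, the endopeptidase that cuts the mineral-binding peptides of Mepe and Spp1, rose by 1.40 and the enamel protease Mmp20, which also cuts Dspp, by 3.19. Bmp1, which cleaves Dspp and Dmp1, had a log2 fold change of 0.13 and Tll1, a related protease, of 0.35, and neither passed the test.

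Among 10 genes for the integrins and Cd44, through which cells bind Ibsp, Spp1 and Dmp1, 1 was higher, 1 was lower and the median was 0.00. The epithelial subunit Itgb6 rose by 1.37 ± 0.38, while Itga8 fell by 0.54 ± 0.14 (log2 ± SE, adjusted p = 0.0412 and 0.0330, edgeR quasi-likelihood test, Benjamini-Hochberg). Itgav was at 0.03 and Itgb3 at 0.33, without passing the test. Of 12 transcription regulators, 2 were higher and 3 lower, with a median of 0.06. Beside both lists stand 9.52% higher and 6.61% lower among all genes tested. Sp6 and Sp7 rose by 0.30 and 0.38, and Runx2, Dlx5 and Msx1 fell by 0.29, 0.32 and 0.26, while Dlx3 (0.19) and Msx2 (-0.16) did not pass the test.

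The enamel relatives of the family had larger log2 fold changes than any of the 8 tested members. Amelx, which encodes amelogenin, was measured at 491, 1419, 2407 and 364 CPM in the controls and at 60581, 2465, 14513 and 6668 CPM in the mutants. All 3 of Ambn, Enam and Amelx were higher, with rises of 5.32, 5.61 and 4.17 on the log2 scale (adjusted p = 0.0279, 0.0244 and 0.0299, edgeR quasi-likelihood test, Benjamini-Hochberg). An enamel score was formed from these 3 genes and the proteases Mmp20 and Klk4 as their mean log2 CPM. It was 4.77, 6.13, 6.87 and 4.73 in J3, J5, J6 and J7 and 11.8, 6.94, 9.79 and 8.17 in K14J26, K14J28, K14J29 and K14J30.

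The embryos fell into nearly the same order for Dspp as for this score. K14J26, K14J29, K14J30, K14J28, J6 and J5 followed each other in both, and only J3 and J7, the lowest embryos, changed places. Sparc followed the order of Dspp but for K14J28 and J6, which changed places. With the score as a covariate, the log2 fold change of Dspp was 0.55 ± 0.31 (SE, adjusted p = 0.341) and that of Sparc 0.022 ± 0.11 (adjusted p = 0.936, both by the edgeR quasi-likelihood test, Benjamini-Hochberg). Odam took another order, with K14J28, the lowest mutant in the score, as the highest embryo, and its log2 fold change with the covariate was 1.19 ± 0.18 (adjusted p = 0.0198 by the same test). The scores of the groups did not overlap, so that this fit separates the score from the genotype only in part.

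**Figure D5:**
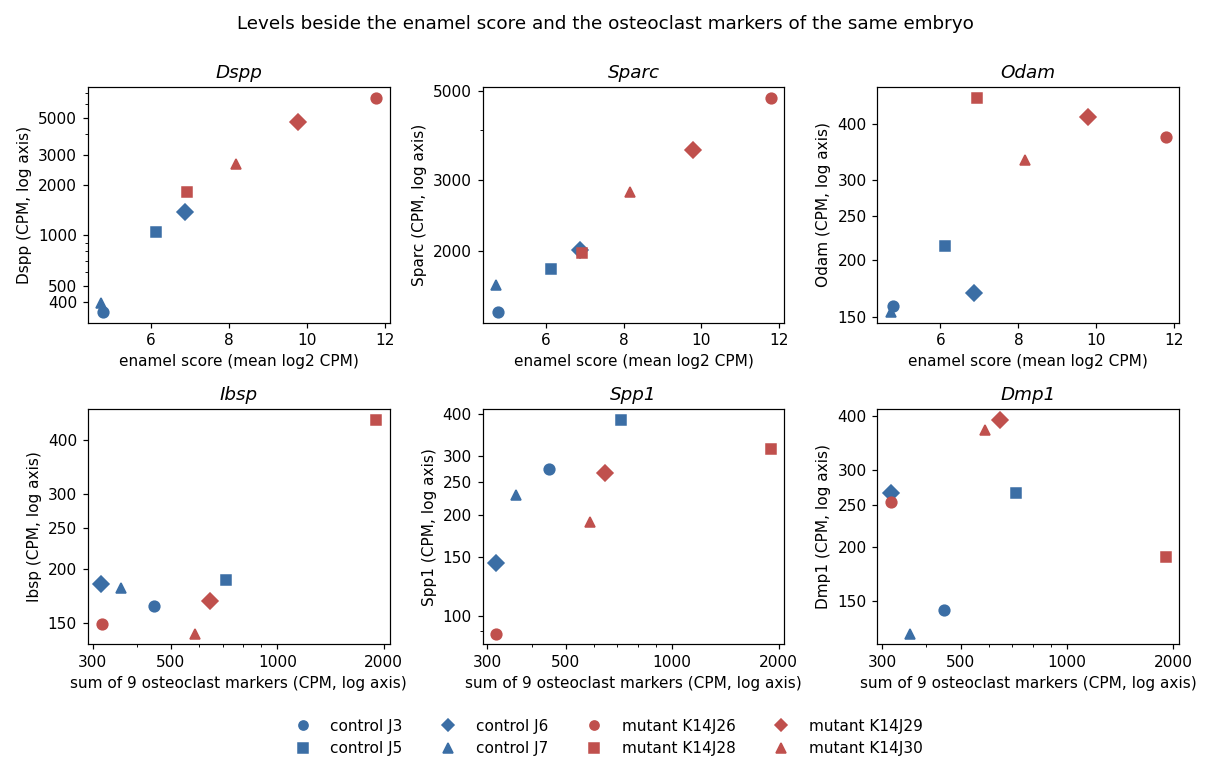
Upper row, levels of Dspp, Sparc and Odam (CPM, log axis) against the enamel score of the same embryo (mean log2 CPM), and lower row, levels of Ibsp, Spp1 and Dmp1 (CPM, log axis) against the summed CPM of 9 osteoclast markers (log axis), for 4 controls (blue) and 4 mutants (red). Dspp and Sparc climb with the score across both groups, Odam is split by group at scores of 6.87 and 6.94, and K14J28 stands alone at 1899 CPM of osteoclast markers.

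Markers of the cell types that could carry these genes moved as follows, and their part in the results was not tested. The shares to set beside their counts are those over all genes tested, 9.52% higher and 6.61% lower. By DESeq2 these shares were 13.1% and 10%, and at an unadjusted p under 0.05 they were 19.1% and 15.7%. Of 5 odontoblast markers, 3 were higher (Nes, Wnt10a and Phex) and 0 lower, with summed levels of 862 to 1100 CPM in the controls and 948 to 1312 CPM in the mutants. The other 2 did not pass the test, and of these Dlx3 had a log2 fold change above 0 and Smpd3 one below 0. Of 5 ameloblast markers, 4 were higher and 0 lower, with sums of 557 to 3252 CPM and 3500 to 114298 CPM, and these hold the enamel genes given above. For both lists 0 were lower by DESeq2 and at an unadjusted p under 0.05 as well. Of 9 osteoblast and osteocyte markers, 4 were higher (Bglap, Bglap2, Sp7 and Sost) and 1 lower (Runx2), with sums of 482 to 573 CPM and 603 to 811 CPM. Of 6 dental epithelium markers, 1 was higher (Krt14) and 0 lower by edgeR, against 4 higher and 1 lower by DESeq2 and the same numbers at an unadjusted p under 0.05, with sums of 4654 to 5368 CPM and 5483 to 8078 CPM. Macrophage markers summed to 64.2 to 89.5 CPM in the controls and 56.8 to 156 CPM in the mutants, with 0 of 6 called by edgeR or DESeq2 and 0 at an unadjusted p under 0.05. Endothelial markers, whose cells also carry Sparc and Sparcl1, summed to 279 to 310 CPM in the controls and 224 to 274 CPM in the mutants, without overlap. Of the 5, 0 were higher and 1 was lower (Tie1) by edgeR, against 3 lower by DESeq2 and 3 at an unadjusted p under 0.05, with 0 higher by either. Of 5 pericyte markers, 1 was higher (Kcnj8) and 1 lower (Pdgfrb), with sums of 306 to 344 CPM and 302 to 352 CPM. No defining marker of these lists was at 0 in all embryos.

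The genes whose profile over the 8 embryos was nearest to each member, by the root mean square difference of centred log2(CPM + 0.5), are given as a description. For Dspp they were Syt10, Loxl4 and Calb1, at 0.247, 0.260 and 0.335, where the profile of Dspp itself had a root mean square of 1.43. For Odam they were Lcn2, Nabp1 and Card14, at 0.170 to 0.178, and for Sparc Gm16731, Carmil1 and Sorbs2, at 0.0576 to 0.0794. The 0.5 CPM added shrinks the differences of low genes, and Gm16731, at 0.0553 to 1.54 CPM, had a log2 fold change of 2.35 against 0.93 for Sparc. For Dmp1 they were Wfdc1, Sct and Tnfrsf23, for Ibsp Qprt, Aspn and Padi2, and for Spp1 Cnn1, Mt1 and Il1rl1. Fgf4, Ccdc81 and Megf11 were nearest to Mepe, and Desi2, Tmem260 and Purg to Sparcl1.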

How the data were processed

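Lower molars of 4 control and 4 mutant embryos were sequenced by RNA-seq. The authors trimmed the reads, aligned them with STAR to GRCm38 (GRCm38.p3 in the submitters' processing notes) and deposited, for each embryo, counts of reads per Ensembl gene, which are not normalized. The paper names GenomicRanges as the counter and the processing notes name featureCounts, and the labels and the paper also differ in the RNA extraction reagent. The use of strand in counting is not given in the sources used here.

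Symbols, positions and exon lengths came from GENCODE release M21, which holds 42548 of the 43629 identifiers, and promoters from RefSeq (GRCm38.p6). The test took genes that reached 10 counts in 2 or more embryos of a group. They were scaled by TMM and fitted without covariates in edgeR 4.0.16 (quasi-likelihood test, R 4.3.3), with Benjamini-Hochberg adjustment over all 17129 genes. Standard errors are the size of the log2 fold change over the square root of F. Ratios between genes, with 0.5 counts added, were compared by exact permutation over 70 arrangements, and their p-values were adjusted over 6 ratios. The code was tested on simulated counts.

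The genes named were the members, Jag1, genes of the lists, neighbours within 250 kb and the 3 nearest profiles. The value of 1 list gene is not reported here. The members, lists and tests were chosen with earlier results of these data known. Alternatives were other scalings, filters and tests (DESeq2 1.42.0 among them), a covariate and leaving out embryos. With 4 embryos per group, their spread limits the precision, and for Mepe and Amtn the low counts do so as well.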

Additional observations from a re-analysis of the deposited data

Results flagged for a closer look

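Among 32 groups of 4 values, the levels of the 9 genes and of Jag1 and the 6 ratios in each group, 3 held a value set apart from the other 3 by more than Dixon's critical gap, and chance alone sets apart about 1 group in 20 (5%). The Ibsp level of mutant K14J28 was 447 CPM, against 141 to 169 CPM in the other 3 mutants. Amtn in mutant K14J26 reached 4.13 CPM, against 0.116 to 0.208 CPM in the other 3. The log2 ratio of Odam to Amtn in the same embryo, which uses the same Amtn counts, was 6.49, against 10.8 to 11.6 in the other mutants.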

How the results depend on the processing

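The 3 calls (Dspp, Odam and Sparc) were the same genes under 3 other scalings, without the 20 most abundant genes in the scaling, under 2 other filters, under the likelihood ratio and robust tests of edgeR and under DESeq2. The split of all calls moved with the scaling, from 1631 higher and 1133 lower genes to 1363 and 1448 by the upper quartile and 864 and 1065 by library size only. With the enamel score as a covariate, the log2 fold change was 0.55 for Dspp and 0.022 for Sparc, which lost their calls, 0.61 for Spp1 and 0.32 for Mepe, whose signs turned, 1.01 for Ibsp (unadjusted p under 0.05, not called) and 0.068 for Dmp1, and 1 member, Odam, was called, while over all genes this fit called 186 higher and 112 lower. Without J6 and J7 together, Dspp (2.48), Odam (1.07) and Sparc (1.03) lost their calls and 0 members were called by edgeR's adjusted p, while 4 had an unadjusted p under 0.05. In that fit 3 higher and 4 lower genes of 16881 were called in all, and 2019 higher and 1501 lower had an unadjusted p under 0.05. For these settings the cause was not tested.

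Leaving out 1 embryo gave log2 fold changes of 1.94 to 2.71 for Dspp, -0.24 to 0.51 for Ibsp, 0.42 to 0.76 for Dmp1, -0.50 to -0.0018 for Spp1, -2.32 to -1.36 for Mepe, 0.69 to 1.11 for Sparc and 0.15 to 0.27 for Sparcl1, and 1 to 4 called members, while 250 to 2479 of all genes were called higher. Odam alone was called without J3, J5, J7 or K14J29. By the study's criteria 3 to 5 members passed in those fits and 5 by DESeq2, with Dmp1 as higher and Mepe as lower added by DESeq2 and without J6 or K14J28. Without a count filter 5 passed, with Mepe and Amtn added. Dmp1 also passed without J5, and Mepe as lower by library size only, by the likelihood ratio test and without J6 and J7 together. Each of these fits passed 4 members. The last 3 passed 1033, 1512 and 1097 higher and 1369, 1064 and 666 lower genes in all. Over all genes, the fits without 1 embryo passed 1143 to 1645 higher and 760 to 1385 lower genes by these criteria. DESeq2 passed 1388 higher and 978 lower genes in all, and the fit without a filter 1626 and 1271 of 26748. Mepe had no value in the fit on genes with 10 counts in all 8 embryos. No paired analysis was possible, because the labels do not give which embryos shared a litter and the groups share no replicate numbers. Litter was therefore not part of any fit. The signs of all called list genes held under the 3 other scalings, but Dcn, Sp7 and Wnt10a were called under 1 of these 3 only and Sp6, Sost, Slc36a2 and Klhl8 under 2. Counts were low for Mepe, at 2 to 47, and for Amtn, at 0 to 86.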
